A study of Mus musculus with 16 samples.

Results

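Esm1, Pdgfb, Kcne3, Cxcr4 and Unc5b are genes associated with endothelial tip cells, and their transcript levels were followed through 16 RNA-seq libraries of endothelial cells (ECs) sorted from mouse long bone. The 5 genes were given by name and were found in every table, among 38926 gene names in the mpEC and bmEC table and in the Lats2 table, and by Ensembl identifier among 21603 genes in the Yap1/Taz files. The libraries form 3 comparisons on the C57BL/6 background. Metaphyseal ECs (mpECs, n = 3) and ECs of the diaphyseal marrow cavity (bmECs, n = 3) are labelled wildtype and were, according to the methods, sorted by reporter fluorescence from Cdh5-mTnG mice aged 3 weeks. Bone ECs with the genotype label Yap1 flx/flx; Wwtr1 flx/flx were collected at postnatal day 21 from mice with Cdh5-CreERT2 (Yap1/Taz iΔEC, n = 3) and without it (control, n = 3). Bone ECs of Lats2 flx/flx mice, 3 weeks old according to the methods, likewise came with Cdh5-CreERT2 (Lats2 iΔEC, n = 2) and without it (control, n = 2). Controls were Cre-negative littermates that carried the same floxed alleles. Cdh5-CreERT2 is a tamoxifen-dependent recombinase driven by the vascular endothelial cadherin promoter, so recombination was directed to cells that used this promoter when the pups were treated, and not to bone alone. The mutant ECs and their controls were stained for CD31 and Emcn before sorting.

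Tip cells are the ECs at the front of a growing sprout. They extend filopodia, respond to vascular endothelial growth factor (VEGF) and are followed by stalk cells, in which Notch signaling restrains the tip cell state. Growing vessels of the bone metaphysis end in blunt buds and loops rather than in single filopodia-bearing cells, and the sinusoidal vessels of the marrow cavity sprout less. Among the genes followed here, Esm1 encodes endocan, a secreted proteoglycan, and Pdgfb encodes the ligand by which ECs recruit pericytes. Cxcr4 encodes the receptor for the chemokine CXCL12, which is also abundant on many blood cells, and Unc5b encodes a netrin receptor that restrains filopodia and sprouting. Kcne3 encodes a small accessory subunit of voltage-gated potassium channels.

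In GRCm38 (GENCODE release M21), Esm1 (ENSMUSG00000042379) lies on chromosome 13 from 113209659 to 113218098 on the plus strand, and Pdgfb (ENSMUSG00000000489) on chromosome 15 from 79995874 to 80014977 on the minus strand. Cxcr4 (ENSMUSG00000045382) lies on chromosome 1 from 128588199 to 128592293 and Unc5b (ENSMUSG00000020099) on chromosome 10 from 60762593 to 60831581, both on the minus strand. Kcne3 (ENSMUSG00000035165) lies on chromosome 7 from 100176502 to 100184869 on the plus strand, and 0.506% of its exon bases lie opposite the antisense gene Gm34821. No other member shares exon bases with another gene, so reads of the 5 genes could be assigned with little ambiguity.

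The bases upstream of the annotated starts are shown because the 5 genes moved together in part of the data and lie on different chromosomes. RefSeq entries (GRCm38.p6) matched 4 of the 5 genes, with none for Pdgfb, and Kcne3 has 2 annotated starts. Each line gives the 250 bases before a start, 5′ to 3′ on the strand of the gene. Capitals mark letters of the 5 motifs that were searched on both strands. These were the TEAD core GGAATG, the core of the hypoxia response element ACGTG, the RBPJ motif GTGGGAA, the TATA box TATAAA and the GC box GGGCGG.
Esm1 (chr13:113209409-113209658, plus strand): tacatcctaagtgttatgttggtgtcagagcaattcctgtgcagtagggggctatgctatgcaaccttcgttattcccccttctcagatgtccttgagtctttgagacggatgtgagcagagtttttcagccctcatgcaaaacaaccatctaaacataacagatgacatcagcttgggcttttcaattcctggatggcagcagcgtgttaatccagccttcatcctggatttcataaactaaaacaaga
Kcne3 upstream start (chr7:100176420-100176669, plus strand): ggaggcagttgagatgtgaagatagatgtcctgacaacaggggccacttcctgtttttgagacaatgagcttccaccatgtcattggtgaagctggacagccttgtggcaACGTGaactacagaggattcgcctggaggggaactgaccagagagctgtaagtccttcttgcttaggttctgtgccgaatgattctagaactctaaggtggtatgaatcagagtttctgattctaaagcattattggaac
Kcne3 downstream start (chr7:100178433-100178682, plus strand): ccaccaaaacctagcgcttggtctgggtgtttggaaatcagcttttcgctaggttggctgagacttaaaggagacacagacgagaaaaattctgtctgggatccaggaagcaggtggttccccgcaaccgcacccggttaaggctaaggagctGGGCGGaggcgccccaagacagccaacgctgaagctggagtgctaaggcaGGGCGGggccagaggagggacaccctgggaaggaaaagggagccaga
Cxcr4 (chr1:128592300-128592549, minus strand): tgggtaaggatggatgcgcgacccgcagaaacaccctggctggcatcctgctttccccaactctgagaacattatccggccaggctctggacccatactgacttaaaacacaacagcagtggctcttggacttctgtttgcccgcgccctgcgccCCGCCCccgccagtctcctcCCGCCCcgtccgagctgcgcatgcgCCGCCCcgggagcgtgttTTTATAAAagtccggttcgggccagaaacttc
Unc5b (chr10:60831582-60831831, minus strand): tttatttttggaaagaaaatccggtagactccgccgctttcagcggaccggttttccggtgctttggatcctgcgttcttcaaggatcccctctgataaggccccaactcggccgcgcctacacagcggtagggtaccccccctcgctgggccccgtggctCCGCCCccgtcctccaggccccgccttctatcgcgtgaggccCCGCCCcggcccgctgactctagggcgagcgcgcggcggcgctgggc

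The TEAD core was not found in these 5 windows, and among 32851 promoter windows of the same length 12.6% held it. The RBPJ motif was not found either, against 5.42% of all windows. The hypoxia response element core occurred in the window before the upstream start of Kcne3, 140 to 136 bases before it, in a stretch that overlaps an exon of a non-coding Kcne3 transcript, and 16.6% of all windows held this motif. Cxcr4 had a TATA box 30 to 25 bases before its start, overlapping a match on the other strand at 32 to 27, against 12.4% of all windows with a match. GC boxes numbered 3 before Cxcr4, 2 before Unc5b and 2 before the downstream start of Kcne3, with 32.7% of all windows holding at least 1. The window of Esm1 held none of the 5 motifs. The GC content of the windows ran from 44% for Esm1 to 66.8% for Unc5b. By these letters, the 4 members with a window differed in composition and in the motifs found. Pdgfb had no window.

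FPKM relates the fragments of a gene to its length and to the size of the library. Reads recovered from these values numbered 1.11e+07 to 1.48e+07 per library in the mpEC and bmEC table, 4.89e+06 to 7.16e+06 in the Yap1/Taz files and 4.73e+06 to 7.07e+06 in the Lats2 table. Of 10 pan-endothelial markers, 0 were at 0 in all libraries of a group, but their summed level was 613 to 918 FPKM in the Yap1/Taz files against 1629 to 2918 FPKM elsewhere. Blood cell transcripts were present too, and the summed level of 6 leukocyte markers was 591 to 623 FPKM in the Yap1/Taz files against 25.2 to 358 FPKM elsewhere. Erythroid and neutrophil markers were instead highest in the mpEC and bmEC libraries. The erythroid sum over 10 genes was 28337 to 60475 FPKM there, 4470 to 6717 FPKM in the Yap1/Taz libraries and 243 to 3694 FPKM in the Lats2 libraries. The neutrophil sum over 12 genes was 9816 to 28812, 1715 to 4049 and 740 to 3045 FPKM in the same order. The tables may have been scaled separately, so levels set across them are descriptions, and tests were run within a table.

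The targeted genes were examined first. Yap1 stood at 1.07, 1.62 and 0.995 FPKM in the Yap1/Taz control libraries 1 to 3 and at 1.43, 1.03 and 0.989 FPKM in those labelled Yap1/Taz iΔEC. Wwtr1, which encodes TAZ, stood at 10.01, 9.88 and 10.3 FPKM in the controls and at 15.3, 19.6 and 19.5 FPKM in the libraries labelled Yap1/Taz iΔEC, a log2 difference of 0.78 ± 0.12 (SE, limma adjusted p = 0.0272). Wwtr1 thus went against the label, while for Yap1 the groups overlapped and no change was detected (log2 difference -0.04, adjusted p = 0.934). Directions below follow the labels, and an exchange of labels, which would turn every direction of this comparison, was not tested. Lats2 was lower in both Lats2 iΔEC libraries, at 19.2 and 19.2 FPKM against 23.4 and 24.0 FPKM in the controls, without passing the test (log2 difference -0.29 ± 0.11, adjusted p = 0.125). A value per gene sums all exons, so it does not show whether the floxed part was removed, and 42.4% of the Lats2 exon bases are shared with the gene Gm49361 on the same strand.

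In bmECs, the 5 genes were lower than in mpECs. This comparison asks how ECs of the vessel-forming metaphysis differ from those of the marrow cavity. The largest difference was that of Kcne3, whose mean was 14.5 times higher in mpECs, followed by Unc5b (6.34 times), Esm1 (3.83 times), Cxcr4 (2.29 times) and Pdgfb (1.43 times). Across all 11422 genes tested, 10.5% were called lower in bmECs, 13% higher and 23.5% in either direction, by limma with a Benjamini-Hochberg adjusted p under 0.05. Groups did not overlap for 41.3% of genes, with 19.2% lower and 22.1% higher in bmECs. In sorted bulk cells, fewer cells of a type and less RNA per cell cannot be told apart. The study also describes endothelial markers, Esm1 and Cd34 among them, in these libraries, so their direction here is not independent evidence.

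Among the secreted proteins, Esm1 measured 12.0, 10.9 and 15.96 FPKM in mpEC libraries 1 to 3 and 2.72, 3.73 and 3.69 FPKM in bmEC libraries 1 to 3. The groups did not overlap, and every mpEC library exceeded the highest bmEC library. On the scale of log2(FPKM + 1), which is used for all differences below and understates the change of low genes, Esm1 differed by -1.66 ± 0.16 (SE, limma adjusted p = 0.000311). Pdgfb, the pericyte-recruiting ligand, measured 9.40, 10.3 and 11.2 FPKM in mpECs and 6.50, 8.80 and 6.26 FPKM in bmECs. Its groups did not overlap either, but bmEC library 2 came close to mpEC library 1. The difference of Pdgfb was -0.47 ± 0.14 (adjusted p = 0.0409), and its adjusted p lay above 0.05 in 5 of the 6 fits that left out 1 library, up to 0.134 without mpEC library 3.

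Of the receptors, Cxcr4 was the lowest member in mpECs, at 2.24, 1.94 and 2.79 FPKM, and measured 1.34, 0.526 and 1.17 FPKM in bmECs. These levels rest on 35 to 50 recovered reads per mpEC library and on 9 to 25 per bmEC library, and the groups did not overlap. The difference was -0.74 ± 0.19 (adjusted p = 0.0288), and the adjusted p was 0.0614 without mpEC library 1, 0.103 without mpEC library 3 and 0.0658 without bmEC library 2. The summed leukocyte markers were 193 to 358 FPKM in mpECs and 147 to 210 FPKM in bmECs, and 6 of 6 were lower in bmECs with 0 called. All 12 neutrophil markers were lower in bmECs with 1 called (median log2 difference -0.61), while of 9 tested macrophage markers 5 were higher and 4 lower. The part of blood cells in the difference of Cxcr4 between mpECs and bmECs was not tested. Unc5b, the netrin receptor, measured 3.24, 3.72 and 4.399 FPKM in mpECs and 0.623, 0.542 and 0.624 FPKM in bmECs. In bmECs it rests on 32 to 46 recovered reads per library. Its coefficient of variation there, 7.90%, was the lowest of the members, but so few reads cannot show evenness. The groups of Unc5b lay far apart. Its difference was -1.58 ± 0.14 (adjusted p = 0.000179).

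Kcne3, the channel subunit, measured 80.0, 98.0 and 134 FPKM in mpECs and 5.73, 8.68 and 7.12 FPKM in bmECs. The lowest mpEC library thus stood several times above the highest bmEC library. Its difference of -3.67 ± 0.20 (adjusted p = 2.86e-05) ranked 11 among the 5720 genes that were lower in bmECs, while Esm1 ranked 120, Unc5b 136, Cxcr4 666 and Pdgfb 1313. Kcne3 made up 74.9% to 79.6% of the summed FPKM of the 5 genes in mpEC libraries and 33.9% to 38.9% in bmEC libraries. In bmECs its range overlapped that of Pdgfb, which supplied 33.2% to 39.5% of the sum.

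**Figure D1:**
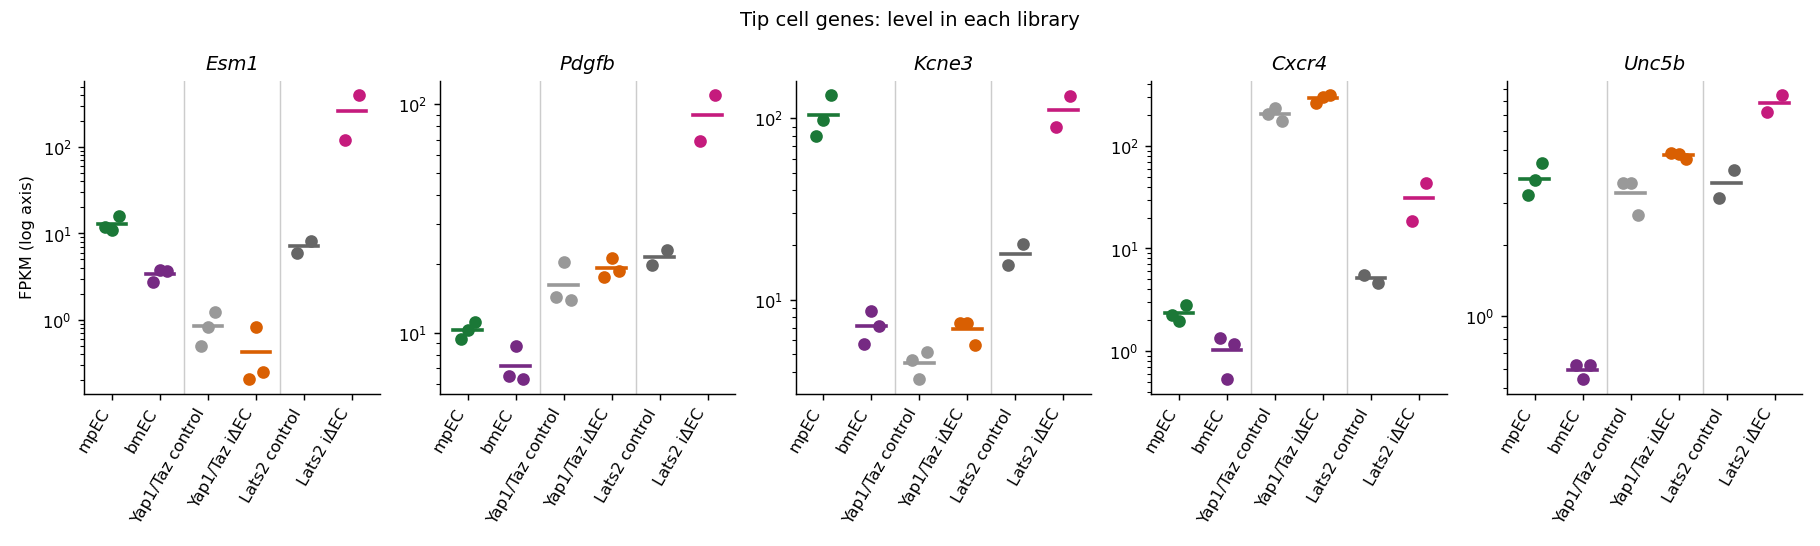
FPKM of the 5 tip cell genes (log axes, 1 panel per gene) in each of the 16 libraries, as points by group. The group mean is a line, and grey lines divide tables that may have been scaled separately. Points of mpECs lie above those of bmECs and points of Lats2 iΔEC above those of Lats2 control in all 5 panels, while Cxcr4 is highest in the Yap1/Taz files.

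Other genes linked to tip cells followed the members in part. Of 26 such genes, 12 were called lower in bmECs, 4 were called higher and 10 were not called, with a median log2 difference of -0.56 against 0.00 over all genes tested. Apln, the apelin ligand, fell from 24.1 ± 1.60 to 1.41 ± 0.406 FPKM (SD, n = 3 each, log2 difference -3.39, adjusted p = 1.22e-05), and Cd34, a sialomucin of capillaries, from 488 ± 28.5 to 50.02 ± 18.7 FPKM (-3.32, adjusted p = 7.57e-05). Ednrb, an endothelin receptor, fell from 95.4 ± 9.75 to 10.02 ± 5.15 FPKM (-3.22). The genes called higher in bmECs were Flt4 (1.11), Adm (0.81), Kdr (0.67) and Nid1 (0.51), of which Flt4 and Kdr encode VEGF receptors, Adm encodes adrenomedullin and Nid1 a basement membrane protein. Angpt2 differed by 0.07 (adjusted p = 0.894) and Dll4 by -0.40 (adjusted p = 0.341). Of 11 stalk cell genes 9 were tested, and 2 were called higher, 4 lower and 3 not, with a median of 0.10.

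A list of 26 partner genes held ligands, receptors, channel partners and paralogues of the members, and related genes such as Vegfa and Kdr. Of these 11 passed the filter, 6 were called lower and 2 higher in bmECs. Kcnq1, a potassium channel that KCNE3 can accompany, fell from 11.5 ± 1.28 in mpECs to 7.12 ± 0.827 FPKM in bmECs (log2 difference -0.63, adjusted p = 0.00715), while Kcne1 and Kcne2 were listed at 0 in every library. Flrt2, which encodes a ligand of UNC5 receptors, fell with Unc5b (-1.998, adjusted p = 0.000113), whereas Flrt3 of the same family was higher in bmECs (0.70, adjusted p = 0.00136). Cxcl12, the ligand of CXCR4, stood at 24.7 ± 3.98 and 22.7 ± 6.86 FPKM (-0.15, adjusted p = 0.654), and Ackr3, the other CXCL12 receptor, fell (-1.20, adjusted p = 0.00503). Pdgfrb, the receptor of PDGF-B on pericytes, was under the filter at 0.119 ± 0.0556 and 0.117 ± 0.0826 FPKM. Marrow stromal and osteoblast markers were higher in mpECs, with a sum over 11 genes of 294 to 823 FPKM against 97.0 to 142 FPKM in bmECs, and of 9 tested 4 were called lower in bmECs and 2 higher. The sum of 10 immediate early genes was 929 to 1356 FPKM in mpECs and 1075 to 3596 FPKM in bmECs, where library 3 was the lowest, and 8 of 10 were higher in bmECs with 2 called. The part of these markers in the differences of the members was not tested. Markers of marrow sinusoidal ECs moved the other way, with 7 of 8 called higher in bmECs and 0 lower, and of 12 arterial markers 7 were called lower and 1 higher.

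In the libraries labelled Yap1/Taz iΔEC, none of the members passed the test at an adjusted p under 0.05 (0 of 4 tested). Kcne3, Cxcr4 and Unc5b nevertheless stood higher in each library labelled Yap1/Taz iΔEC than in each control, by 1.42 to 1.53 times in the mean. The comparison was made to follow bone ECs after loss of both coactivators, and Wwtr1 went against its label. Of 11320 genes tested, 1.31% were called in either direction, 0.883% higher and 0.424% lower, and the groups did not overlap for 23.6%, with 12.3% higher and 11.3% lower. Before adjustment, 2023 genes had a limma p under 0.05, among them Kcne3, Cxcr4 and Unc5b.

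Esm1 was close to undetected in these files, at 0.502, 0.831 and 1.23 FPKM in the controls and 0.204, 0.816 and 0.252 FPKM in the libraries labelled Yap1/Taz iΔEC. These values are 5, 12 and 16 recovered reads against 2, 10 and 3, the groups overlapped, and the mean of Esm1 was under the filter of 1 FPKM, so it was left out of the test. With no filter, its difference was -0.39 (limma adjusted p = 0.419). The Lats2 libraries held a similar number of reads and 62 or more for Esm1. Pdgfb measured 14.3, 20.5 and 13.95 FPKM in the controls and 17.5, 21.3 and 18.6 FPKM in the libraries labelled Yap1/Taz iΔEC. Control library 2 stood above 2 of the libraries labelled Yap1/Taz iΔEC, and the difference was 0.24 (95% interval -0.09 to 0.57, limma adjusted p = 0.429).

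Cxcr4 was the most abundant member here, at 206, 235 and 177 FPKM in the controls and 261, 303 and 313 FPKM in the libraries labelled Yap1/Taz iΔEC. The groups did not overlap, and the difference was 0.51 ± 0.13 (95% interval 0.22 to 0.79, adjusted p = 0.0785). It was called by limma-voom on recovered reads (adjusted p = 0.0349) and without library 1 labelled Yap1/Taz iΔEC (adjusted p = 0.0482). Unc5b measured 3.64, 3.62 and 2.65 FPKM in the controls and 4.87, 4.79 and 4.57 FPKM in the libraries labelled Yap1/Taz iΔEC, a difference of 0.43 ± 0.14 (adjusted p = 0.144). Kcne3 measured 4.66, 3.64 and 5.17 FPKM against 7.48, 7.47 and 5.63 FPKM (0.52 ± 0.15, adjusted p = 0.117). For both genes every library labelled Yap1/Taz iΔEC exceeded every control.

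The pan-endothelial markers moved in the same direction. Their sum was 613 to 640 FPKM in the controls and 791 to 918 FPKM in the libraries labelled Yap1/Taz iΔEC, 10 of 10 were higher with 1 called, and their median log2 difference was 0.36 against 0.47 for the 4 tested members. Scaled to these markers, a choice made after the data were seen, the median of all genes shifted to -0.42, and the differences became 0.10 for Kcne3, 0.09 for Cxcr4, 0.01 for Unc5b and -0.18 for Pdgfb. Leukocyte markers summed to 602 to 609 FPKM in the controls and 591 to 623 FPKM in the others, with 3 of 6 higher. B cell markers were lower for 10 of 10 genes with 0 called (median -0.43), and their sums did not overlap, at 298 to 351 FPKM in the controls and 245 to 248 FPKM in the others. The part of these cells in the difference of Cxcr4 was not tested. Of the other tip cell genes 24 of 26 were tested, 4 were called higher and 0 lower, with a median of 0.31. These were Plaur, the urokinase receptor (0.95, adjusted p = 0.0387), Ramp3, a subunit of adrenomedullin receptors (0.94, adjusted p = 0.0347), Flt4 (0.64, adjusted p = 0.0347) and Mcam, an adhesion molecule (0.53, adjusted p = 0.0387). Apln stood at 5.28 ± 0.264 and 3.41 ± 0.493 FPKM (-0.51, adjusted p = 0.0785), and all 10 tested stalk cell genes were higher with 0 called and a median of 0.37.

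Among partners of the members 14 of 26 were tested, and 2 were called higher. Kcnq1 rose from 4.11 ± 0.735 to 7.49 ± 0.367 FPKM (0.74, adjusted p = 0.0396), and Vegfa, the main growth factor of tip cells, from 21.7 ± 5.45 to 52.8 ± 9.16 FPKM (1.26, adjusted p = 0.0235). Cxcl12 stood at 5.73 ± 0.531 and 4.08 ± 0.571 FPKM (-0.41, adjusted p = 0.147), Flrt3 at 2.72 ± 0.441 and 4.71 ± 0.582 FPKM (0.62, adjusted p = 0.066), and Pdgfrb at 6.29 ± 1.23 and 5.76 ± 0.768 FPKM (-0.10, adjusted p = 0.787).

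In Lats2 iΔEC libraries, the 5 genes were higher than in the controls. LATS2 is a Hippo pathway kinase that restrains YAP1 and TAZ, and the comparison asks what its loss does to bone ECs. The mean of Esm1 was 36.6 times higher, that of Kcne3 6.24 times, of Cxcr4 6.07 times, of Pdgfb 4.16 times and of Unc5b 2.17 times. Of 12453 genes tested, 11.8% were called higher, 9.98% lower and 21.8% in either direction. With 2 libraries per group the groups did not overlap for 68.2% of genes, 34% higher and 34.2% lower. The study also describes tip cell markers in these libraries, so their direction here is not independent evidence.

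Esm1 measured 5.94 and 8.26 FPKM in control libraries 1 and 2 and 122 and 398 FPKM in Lats2 iΔEC libraries 1 and 2. The mutant libraries differed from each other by 3.27 times, and the lower of them still stood far above both controls. The libraries also differed in their most abundant transcripts. The 10 most abundant genes took 8.67% and 8.87% of the summed FPKM in the controls and 12.8% and 16.8% in Lats2 iΔEC libraries 1 and 2, and Gm23935, the most abundant of all, stood at 6093 and 7629 FPKM in the controls and at 15846 and 26667 FPKM in Lats2 iΔEC. Their part in the differences of the members was not tested. The difference of 4.79 ± 0.55 (SE, limma adjusted p = 0.0104) ranked 3 among the 6195 genes that were higher in Lats2 iΔEC. Pdgfb measured 19.8 and 23.2 FPKM in the controls and 69.2 and 110 FPKM in Lats2 iΔEC. Its groups did not overlap, and the difference was 1.97 ± 0.24 (adjusted p = 0.0109).

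Cxcr4 measured 5.56 and 4.65 FPKM in the controls and 18.5 and 43.4 FPKM in Lats2 iΔEC, a difference of 2.27 ± 0.39 (adjusted p = 0.0197). Library 2 was the higher mutant library for Cxcr4 as for the other 4 genes. The summed leukocyte markers went the other way, at 97.6 to 119 FPKM in the controls and 25.2 to 54.2 FPKM in Lats2 iΔEC. Of these, 6 of 6 were lower and 4 were called. Of B cell markers 7 of 9 tested were called lower, and of neutrophil markers 8 of 11. Macrophage markers were divided by gene, with 4 of 8 tested higher and 0 called, and 4 lower with 2 called. Their sum was 176 to 203 FPKM in the controls and 32.9 to 82.1 FPKM in Lats2 iΔEC. Of 7 tested megakaryocyte and platelet markers 1 was called higher, namely Vwf, and 1 lower. Markers of 2 other cell types moved partly with the members. Of 6 tested pericyte and smooth muscle markers 3 were called higher and 2 lower, while their sum over 10 genes was 466 to 556 FPKM in the controls and 134 to 145 FPKM in Lats2 iΔEC. Abcc9, called lower, is also counted among the markers of marrow sinusoidal ECs. Of 9 tested stromal and osteoblast markers 3 were called higher and 0 lower, with sums of 76.5 to 117 FPKM in the controls and 137 to 152 FPKM in Lats2 iΔEC. The part of these cells in the differences of the members was not tested. Unc5b measured 3.13 and 4.11 FPKM in the controls and 7.20 and 8.48 FPKM in Lats2 iΔEC. The groups did not overlap, and the difference of 0.94 ± 0.18 (adjusted p = 0.0251) was the smallest of the 5.

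Kcne3 measured 15.4 and 20.3 FPKM in the controls and 89.3 and 133 FPKM in Lats2 iΔEC. Both mutant libraries exceeded both controls, and the difference was 2.56 ± 0.24 (adjusted p = 0.00808). Leaving out either control library left 1 control, whose spread is then assumed to be that of the mutants, and 0 genes passed in that fit, with adjusted p from 0.110 to 0.181 for the members. Leaving out a mutant library lost the call of Unc5b in both cases (adjusted p = 0.0526 and 0.0995) and kept those of the other 4 genes. The pan-endothelial markers summed to 2650 to 2918 FPKM in the controls and 2423 to 2607 FPKM in Lats2 iΔEC, with 1 of 10 called higher and 2 called lower. Scaling to them shifted the median of all genes to 0.15, and the 5 members stayed higher with an adjusted p under 0.05.

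**Figure D2:**
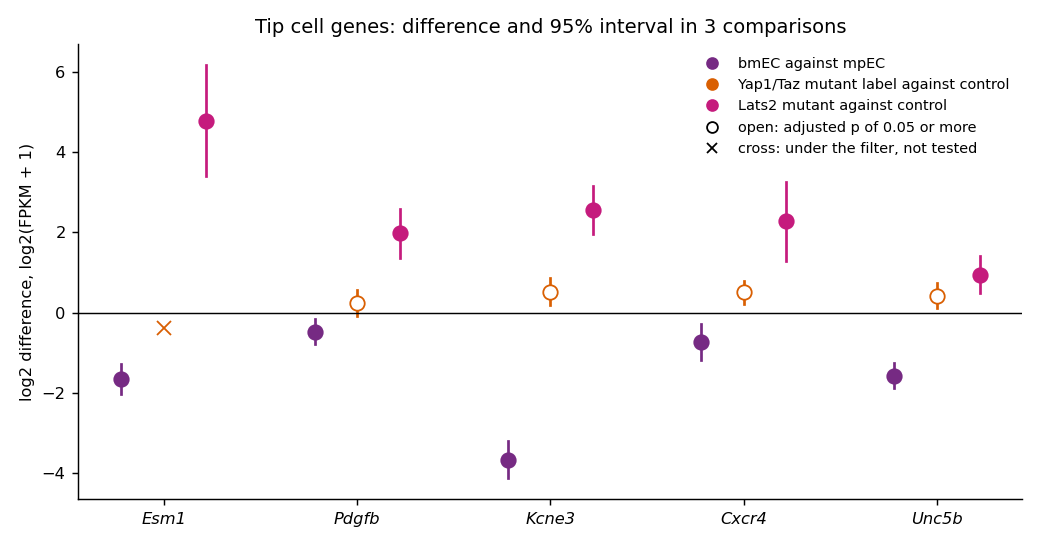
Log2 difference of each tip cell gene on the scale of log2(FPKM + 1), with its 95% interval, for bmEC against mpEC, the Yap1/Taz iΔEC label against control and Lats2 iΔEC against control; filled points passed at an adjusted p under 0.05, open points did not, and the cross is Esm1, which was not tested. The bmEC points lie below 0, from -3.67 to -0.47, and the Lats2 points above 0, from 0.94 to 4.79.

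The makeup of the 5 genes changed along with their level. Their summed FPKM was 49.9 and 60.4 in the Lats2 controls and 306 and 693 in Lats2 iΔEC. The share of Esm1 in this sum was 11.9% and 13.7% in the controls and 39.8% and 57.5% in Lats2 iΔEC, while that of Pdgfb was 39.7% and 38.3% in the controls and 22.6% and 15.8% in Lats2 iΔEC. In the Yap1/Taz files Cxcr4 held 88.5% to 91.5% of the sum in all 6 libraries. The highest mean of the 5 was that of Kcne3 in mpECs, Cxcr4 in both Yap1/Taz groups, Esm1 in Lats2 iΔEC and Pdgfb in bmECs and Lats2 controls. In bmECs, Lats2 controls and Lats2 iΔEC the leading gene overlapped in range with the next.

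**Figure D3:**
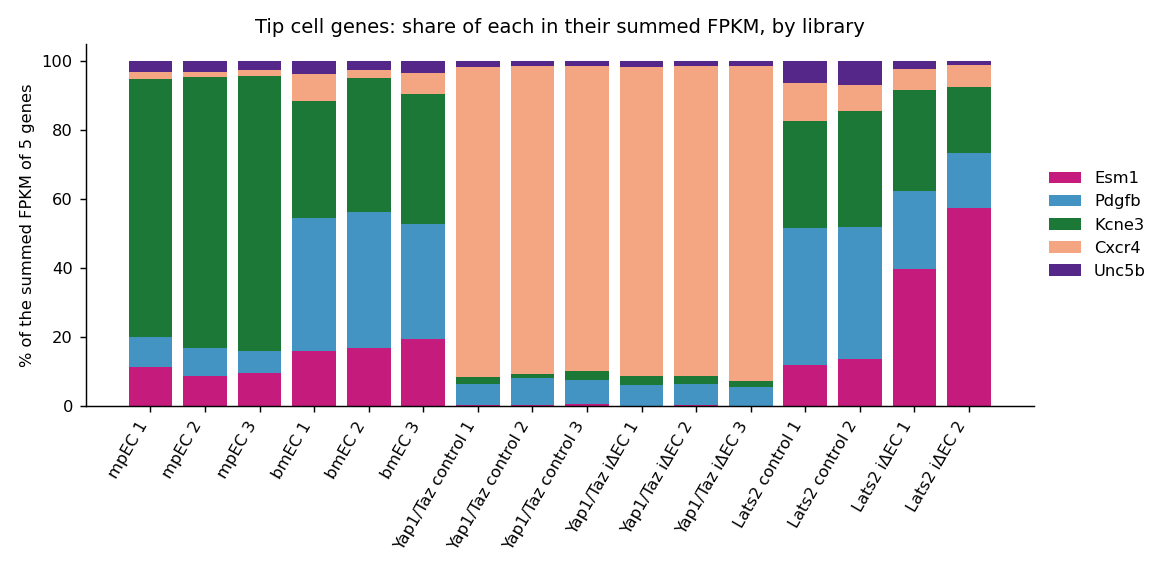
Share of each tip cell gene in the summed FPKM of the 5 genes, in percent, for each of the 16 libraries as stacked bars. Kcne3 fills most of the mpEC bars, Cxcr4 fills 88.5% to 91.5% of the Yap1/Taz bars, and the share of Esm1 rises from 11.9% and 13.7% in the Lats2 controls to 39.8% and 57.5% in Lats2 iΔEC.

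Of the 26 other tip cell genes, 14 were called higher in Lats2 iΔEC, 2 lower and 10 not, with a median log2 difference of 0.85. Angpt2, the antagonistic ligand of the TIE2 receptor, rose from 8.11 ± 0.0661 to 325 ± 217 FPKM (SD, n = 2 each, log2 difference 4.98, limma adjusted p = 0.00816). Adm rose from 7.15 ± 1.26 to 210 ± 143 FPKM (4.51, adjusted p = 0.00986), and Apln from 35.8 ± 7.49 to 770 ± 316 FPKM (4.34, adjusted p = 0.00684). The genes called lower were Flt4 (-1.81, adjusted p = 0.0091) and Kdr (-0.95, adjusted p = 0.0204), both VEGF receptors. Dll4, the Notch ligand of tip cells, differed by 0.24 (adjusted p = 0.445) and Nrp1, a VEGF coreceptor, by -0.05 (adjusted p = 0.81). Stalk cell genes were divided, with 2 of 10 tested called higher, 2 lower and a median of -0.02. Those called higher were Vwf (2.25, adjusted p = 0.0252), also counted among the megakaryocyte markers, and Nrarp, a Notch target (1.61, adjusted p = 0.0115). Those called lower were Ackr1 (-1.51, adjusted p = 0.007) and Tek, the TIE2 receptor (-1.35, adjusted p = 0.0217). All 8 markers of marrow sinusoidal ECs were called lower, with sums of 3353 to 3527 FPKM in the controls and 621 to 722 FPKM in Lats2 iΔEC. Fewer cells of a type and less RNA per cell cannot be told apart here either. The part of sinusoidal ECs in the differences of the members was not tested.

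**Figure D4:**
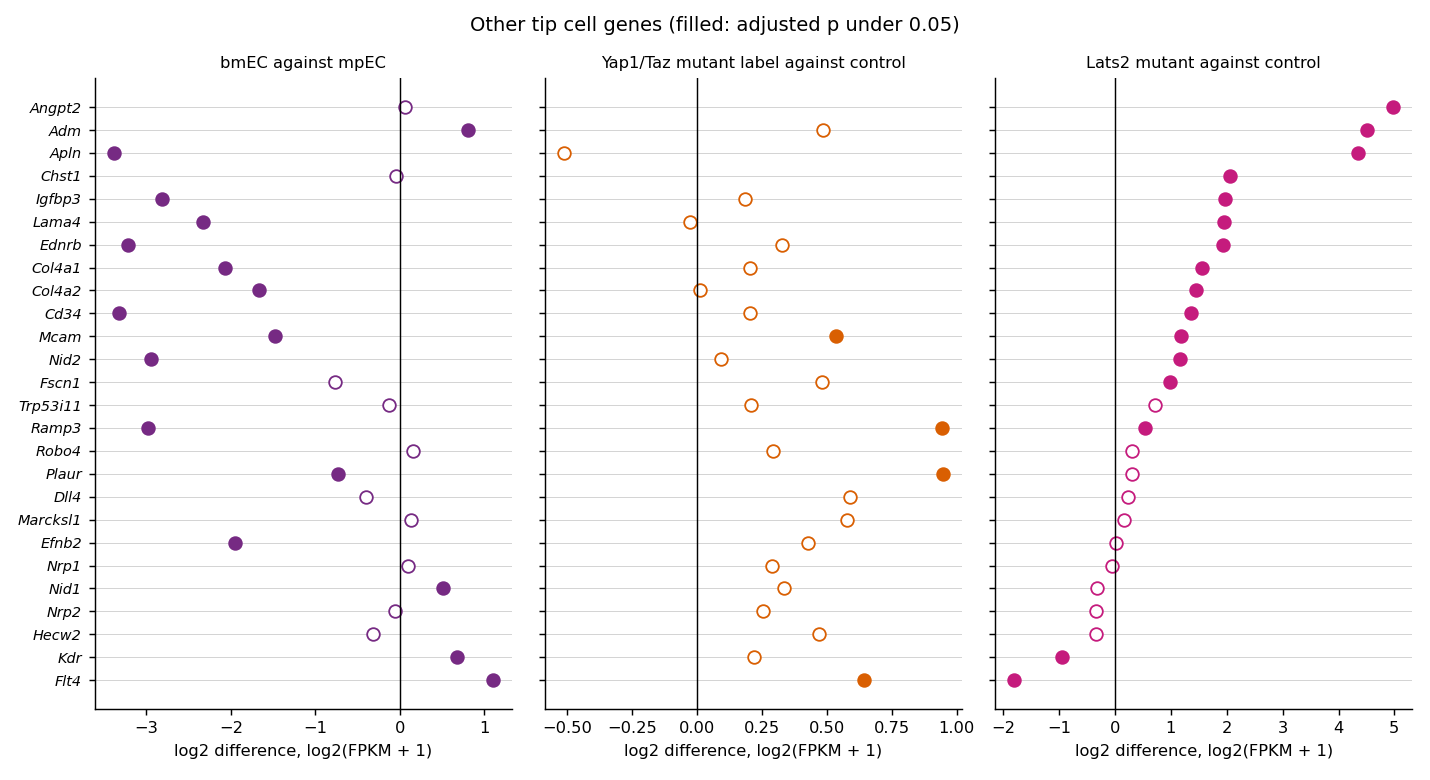
Log2 difference, on the scale of log2(FPKM + 1), of 26 other tip cell genes (rows, ordered by the Lats2 comparison) in the 3 comparisons; filled points passed at an adjusted p under 0.05, and horizontal scales differ between panels. In bmECs 12 are called lower and 4 higher, under the Yap1/Taz iΔEC label 4 are called higher, and in Lats2 iΔEC 14 are called higher and 2 lower.

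Among partners of the members 17 of 26 were tested in the Lats2 table, 7 were called higher and 4 lower. Fn1, the matrix protein fibronectin, rose from 7.34 ± 3.17 to 148 ± 22.6 FPKM (4.21, adjusted p = 0.00654), and Ntn4, a netrin, rose from 0.853 ± 0.446 to 9.29 ± 3.12 FPKM (2.46, adjusted p = 0.0108). Ackr3 rose (2.20, adjusted p = 0.0239), and Cxcl12 rose from 25.96 ± 5.36 to 40.7 ± 0.967 FPKM (0.64, adjusted p = 0.05 after rounding). The growth factors Pdgfd (1.10, adjusted p = 0.0115) and Pdgfa (0.94, adjusted p = 0.0478) rose with Pdgfb. Flrt3 fell (-2.06, adjusted p = 0.0157), as did Vegfa (-1.998, adjusted p = 0.00758), Unc5a, a paralogue of Unc5b (-1.79, adjusted p = 0.00912), and Kdr. Kcnq1 stood at 22.5 ± 5.23 and 24.7 ± 2.50 FPKM (0.14, adjusted p = 0.62), and Pdgfrb at 0.401 ± 0.263 and 2.66 ± 1.37 FPKM (1.35, adjusted p = 0.0501).

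Set in order over all 6 groups, the members did not share a ranking. This order spans tables that may have been scaled separately, and it carries no test. Lats2 iΔEC held the highest mean of Esm1 (260 FPKM), Pdgfb (89.4 FPKM), Kcne3 (111 FPKM) and Unc5b (7.84 FPKM). The Kcne3 ranges of Lats2 iΔEC and mpECs (104 FPKM) overlapped, as did those of bmECs (7.18 FPKM) and the libraries labelled Yap1/Taz iΔEC (6.86 FPKM). For Pdgfb the neighbouring means of the Lats2 controls (21.5 FPKM), the libraries labelled Yap1/Taz iΔEC (19.2 FPKM) and the Yap1/Taz controls (16.2 FPKM) overlapped in range. For Unc5b the same held of mpECs (3.78 FPKM), the Lats2 controls (3.62 FPKM) and the Yap1/Taz controls (3.30 FPKM), and bmECs stood last at 0.596 FPKM. For Esm1 the order below Lats2 iΔEC was mpECs (12.95 FPKM), Lats2 controls (7.10 FPKM), bmECs (3.38 FPKM), and the Yap1/Taz controls (0.855 FPKM) and libraries labelled iΔEC (0.424 FPKM), of which the last pair overlapped.

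Cxcr4 was the exception, with 292 FPKM in the libraries labelled Yap1/Taz iΔEC and 206 FPKM in their controls, then 31.0 FPKM in Lats2 iΔEC, 5.10 FPKM in the Lats2 controls, 2.32 FPKM in mpECs and 1.02 FPKM in bmECs. No neighbours in this order overlapped. The libraries with the highest Cxcr4 were also those with the highest sums of leukocyte and macrophage markers. The macrophage sum over 10 genes was 1188 to 1627 FPKM in the Yap1/Taz files against 32.9 to 550 FPKM elsewhere. Neutrophil and erythroid sums were instead highest in the mpEC and bmEC libraries, where Cxcr4 was lowest. B cell sums overlapped, at 245 to 351 FPKM in the Yap1/Taz libraries and 198 to 450 FPKM in mpECs and bmECs. The part of blood cells in the level of Cxcr4 was not tested. Within the Lats2 table the relation to leukocyte markers was the opposite, since Cxcr4 was highest in the library with the lowest leukocyte sum.

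**Figure D5:**
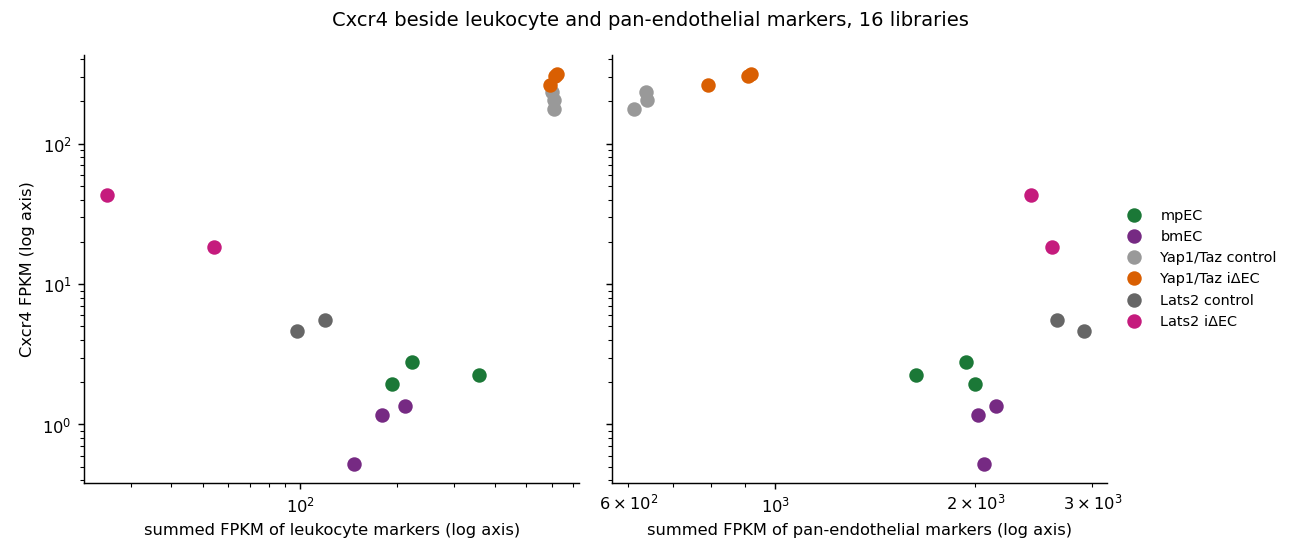
Cxcr4 FPKM (vertical, log axis) in the 16 libraries against the summed FPKM of 6 leukocyte markers (left) and of 10 pan-endothelial markers (right), on log axes, coloured by group. The Yap1/Taz libraries combine 177 to 313 FPKM of Cxcr4 with the highest leukocyte sums (591 to 623 FPKM) and the lowest pan-endothelial sums (613 to 918 FPKM), while the Lats2 iΔEC libraries have 18.5 and 43.4 FPKM of Cxcr4 at the lowest leukocyte sums.

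The genes with the most similar pattern were sought for each member as the smallest Euclidean distance of log2(FPKM + 1), centred within each table, over the 16 libraries, which share the same few conditions. For Esm1 these were Fn1 (distance 1.80), Pgf (1.92) and Ddah1 (2.05), against a median of 5.49 over 7283 candidate genes. For Kcne3 they were Cd109 (1.13), Ednrb (1.34) and Igfbp3 (1.52), against 5.35 over 7239 genes. For Pdgfb they were Csrp1 (0.70), Anxa6 (0.78) and Bcr (0.79), for Cxcr4 Olfml2b (0.86), Myo1d (0.87) and Tmsb10 (1.02), and for Unc5b BC028528 (0.48), St8sia4 (0.63) and Mcam (0.65), against medians of 2.35, 2.85 and 2.40. No member was among the 3 nearest genes of another. Between members the smallest distance was that of Pdgfb and Cxcr4 (1.14) and the largest that of Esm1 and Unc5b (4.21). Centring removes the mean level, but the 1 FPKM added before the logarithm shrinks the differences of low genes such as Cxcr4. Tmsb10 was near Cxcr4 on this scale, with differences of -0.80 and -0.74 in bmECs. Its means in mpECs and bmECs were 1114 and 641 FPKM, and those of Cxcr4 were 2.32 and 1.02 FPKM. With 0.1 FPKM added instead, the difference of Cxcr4 was -1.19.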

How the data were processed

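RNA-seq libraries of sorted mouse bone ECs were analyzed from the deposited FPKM values, which the authors made from TopHat alignments of paired-end reads to GRCm38 and HTSeq (version 0.6.1 per the labels) gene counts. The step from counts to FPKM and the strand setting are not given in the sources used here. Yap1/Taz identifiers were matched to symbols in GENCODE M21 (21375 of 21603). Groups followed the labels. The methods speak of biological triplicates, with 2 libraries per Lats2 group analysed here, and nothing gives the number of animals behind a library. Where libraries are not separate animals, p-values measure only the spread between libraries.

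Within each table, log2(FPKM + 1) of genes averaging 1 FPKM or more was fitted with limma (3.58.1, R 4.3.3), with 1 group term, empirical Bayes moderation and a mean-variance trend. P-values were two-sided and Benjamini-Hochberg adjusted over all genes tested, and genes were called under 0.05. The study compared each mutant with its own control, as was done here. Reads were recovered as FPKM times exon length and a library factor, and 62.7% to 70.2% of values of up to 20 reads came out whole to within 0.02 reads (4% expected by chance). On simulated libraries, true log2 changes of 1 and 2 were recovered for 91% and 100% of 100 genes each (bmEC against mpEC, 10805 genes). The shares were 94% and 100% (Yap1/Taz, 11314 genes) and 38% and 92% (Lats2, 11735 genes), with no wrong sign. The simulation gave every gene the same spread beyond counting error and both groups the same cell makeup. Real spread was larger for some genes, with a coefficient of variation of 75.1% for Esm1 in Lats2 iΔEC. The shares recovered need not hold for such genes. Named genes were the members, the targeted genes, the 3 most similar genes of each member among those with a mean of at least 5 FPKM, list genes with the largest called differences, partners of the members, and markers that moved with a result. Angpt2 and Dll4 in bmECs and Apln and Pdgfrb under the Yap1/Taz label were named after their values were seen. So were Dll4, Nrp1, Nrarp, Tek, Vwf and Ackr1 in Lats2 iΔEC, and Nid1. The values of 1 partner gene are not reported here. The members and all lists were chosen with earlier results of these data known. Some genes are in more than 1 list, so counts of different lists are not independent. Kdr and Tek are pan-endothelial as well as tip or stalk cell genes, and Flt4 is both a tip cell and a sinusoidal gene. Dll4, Efnb2 and Hey1 are also arterial markers. Abcc9 is both a pericyte and a sinusoidal marker, and Vwf is both a stalk cell gene and a megakaryocyte marker. Alternatives changed the pseudocount, filter, scaling, trend, replicate block, test and libraries used. Python 3.11.15 with pandas 2.3.3 and matplotlib 3.10.9 was used.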

Additional observations from a re-analysis of the deposited data

How the results depend on the processing

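The direction of the members was kept under every alternative in bmECs and Lats2 iΔEC. The exception over all comparisons was Pdgfb under the Yap1/Taz label, which turned to -0.18 (adjusted p = 0.293) when libraries were scaled to pan-endothelial markers.

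In bmECs against mpECs, Esm1, Kcne3 and Unc5b kept their call under every alternative in which they were tested. With no filter on low values, 3 of the 5 members were called, with Pdgfb at -0.47 (adjusted p = 0.0847) and Cxcr4 at -0.74 (adjusted p = 0.0743), and at a filter of 5 FPKM 3 were called because Cxcr4 and Unc5b were not tested. Scaling to pan-endothelial markers gave Pdgfb -0.48 (adjusted p = 0.0689). Leaving out 1 library gave 3 to 4 members called, 1817 to 2357 genes called in all, and log2 differences of -1.77 to -1.51 for Esm1, -0.61 to -0.39 for Pdgfb, -3.84 to -3.47 for Kcne3, -0.86 to -0.55 for Cxcr4 and -1.66 to -1.49 for Unc5b.

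Under the Yap1/Taz label the number of genes called was 148, and it was 1 with no filter, 17 without the trend, 45 with the replicate block, 387 by limma-voom and 6550 after scaling to pan-endothelial markers. Leaving out 1 library gave 1 to 293 genes, namely 20 without control 2, 14 without control 3, 293 without mutant-labelled library 1 and 1 without either library 2 or 3. Of the members, 1 was called by limma-voom and 1 without mutant-labelled library 1, in both cases Cxcr4 (0.51 and 0.59, adjusted p = 0.0349 and 0.0482), and 0 to 1 over all libraries left out. Differences without 1 library were 0.15 to 0.41 for Pdgfb, 0.40 to 0.64 for Kcne3, 0.41 to 0.61 for Cxcr4 and 0.31 to 0.48 for Unc5b.

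In Lats2 iΔEC, 2711 genes were called, and 1389 with no filter, where 3 members were called and Cxcr4 (2.27, adjusted p = 0.0519) and Unc5b (0.94, adjusted p = 0.0607) were not. Leaving out 1 library gave 0 to 2701 genes and 0 to 4 members, with 933 genes without mutant library 2. Differences were then 3.94 to 5.64 for Esm1, 1.65 to 2.30 for Pdgfb, 2.27 to 2.85 for Kcne3, 1.68 to 2.87 for Cxcr4 and 0.79 to 1.10 for Unc5b. The cause of these changes was not tested.

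The labels do not say whether same-numbered libraries belong together. Correlations of deviations from the group mean were 0.088 to 0.31 for same-numbered mpEC and bmEC libraries and -0.21 to 0.12 for the other pairs. For Yap1/Taz they were -0.18 to -0.12 against -0.15 to 0.24, and for Lats2 0.065 against -0.065. With 2 libraries per group the Lats2 values must be equal and opposite, so they are not separate results. With the replicate block, 3072 genes were called in bmECs (2682 without it), 45 under the Yap1/Taz label (148 without it) and 2655 in Lats2 iΔEC (2711 without it). The calls of the members did not change. Counting error was largest for Esm1 in the Yap1/Taz files, which rests on 2 to 16 recovered reads per library.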
